A study of Homo sapiens with 4 samples.

Results

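The genes described here are 10 regulators of the helix-loop-helix class, ID1 to ID4, HES1, HES4, HEY1, HEY2, BHLHE40 and BHLHE41. They were chosen by name, with earlier results of these data known. A site was counted when it lay in an annotated exon of one of these genes on the gene's strand. This gave 20 of the 18789 N6-methyladenosine (m6A) sites in the list. The sites were mapped with miCLIP2, which joins an antibody against m6A to RNA by UV light and reads the nucleotide where reverse transcription breaks off. Peaks at adenosines were then classified by the machine learning model m6Aboost, whose score runs from 0 to 1. The lowest score in the list was 0.5. The RNA was polyadenylated RNA from untreated wild-type C643 cells, an established line from an anaplastic thyroid carcinoma, and there was 1 group with 3 biological replicates in 4 libraries (replicate 1 was sequenced as 2 technical libraries). The list pools the replicates, so it holds no spread between replicates, no read counts and no depth per site, and no sample lacking the methyltransferase METTL3 was analysed here. Intervals in brackets are 95% Wilson intervals over motifs or sites, and they cover counting alone.

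Helix-loop-helix proteins act as dimers. The ID proteins lack the basic region that contacts DNA and bind E proteins, which they keep from DNA, so they restrain differentiation programmes, and their genes are classical targets of BMP signalling. HES and HEY proteins are DNA-binding repressors that carry Notch signals to target promoters, and HES proteins recruit TLE corepressors. BHLHE40 and BHLHE41, also called DEC1 and DEC2, are repressors linked to the circadian clock and to hypoxia. Several of these mRNAs are short-lived, and m6A, which METTL3 places mainly at DRACH motifs (D is not C, R is a purine and H is not G), is known to shorten the life of mRNAs through YTH-domain readers.

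Sites were listed in 4 of the 10 genes. BHLHE40 held 13, ID1 and ID3 held 3 each, and HES4 held 1. No site was listed in ID2, ID4, HES1, HEY1, HEY2 or BHLHE41. Over all protein-coding genes, 19.6% held a site in an exon. RNA levels were not analysed here, and a missing site may reflect low coverage as well as no m6A, which cannot be told apart. The thyroid follicular genes TG, TSHR, SLC5A5, PAX8, NKX2-1 and FOXE1 held no site either, and the list therefore offers no check of the tissue of origin.

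**Figure D1:**
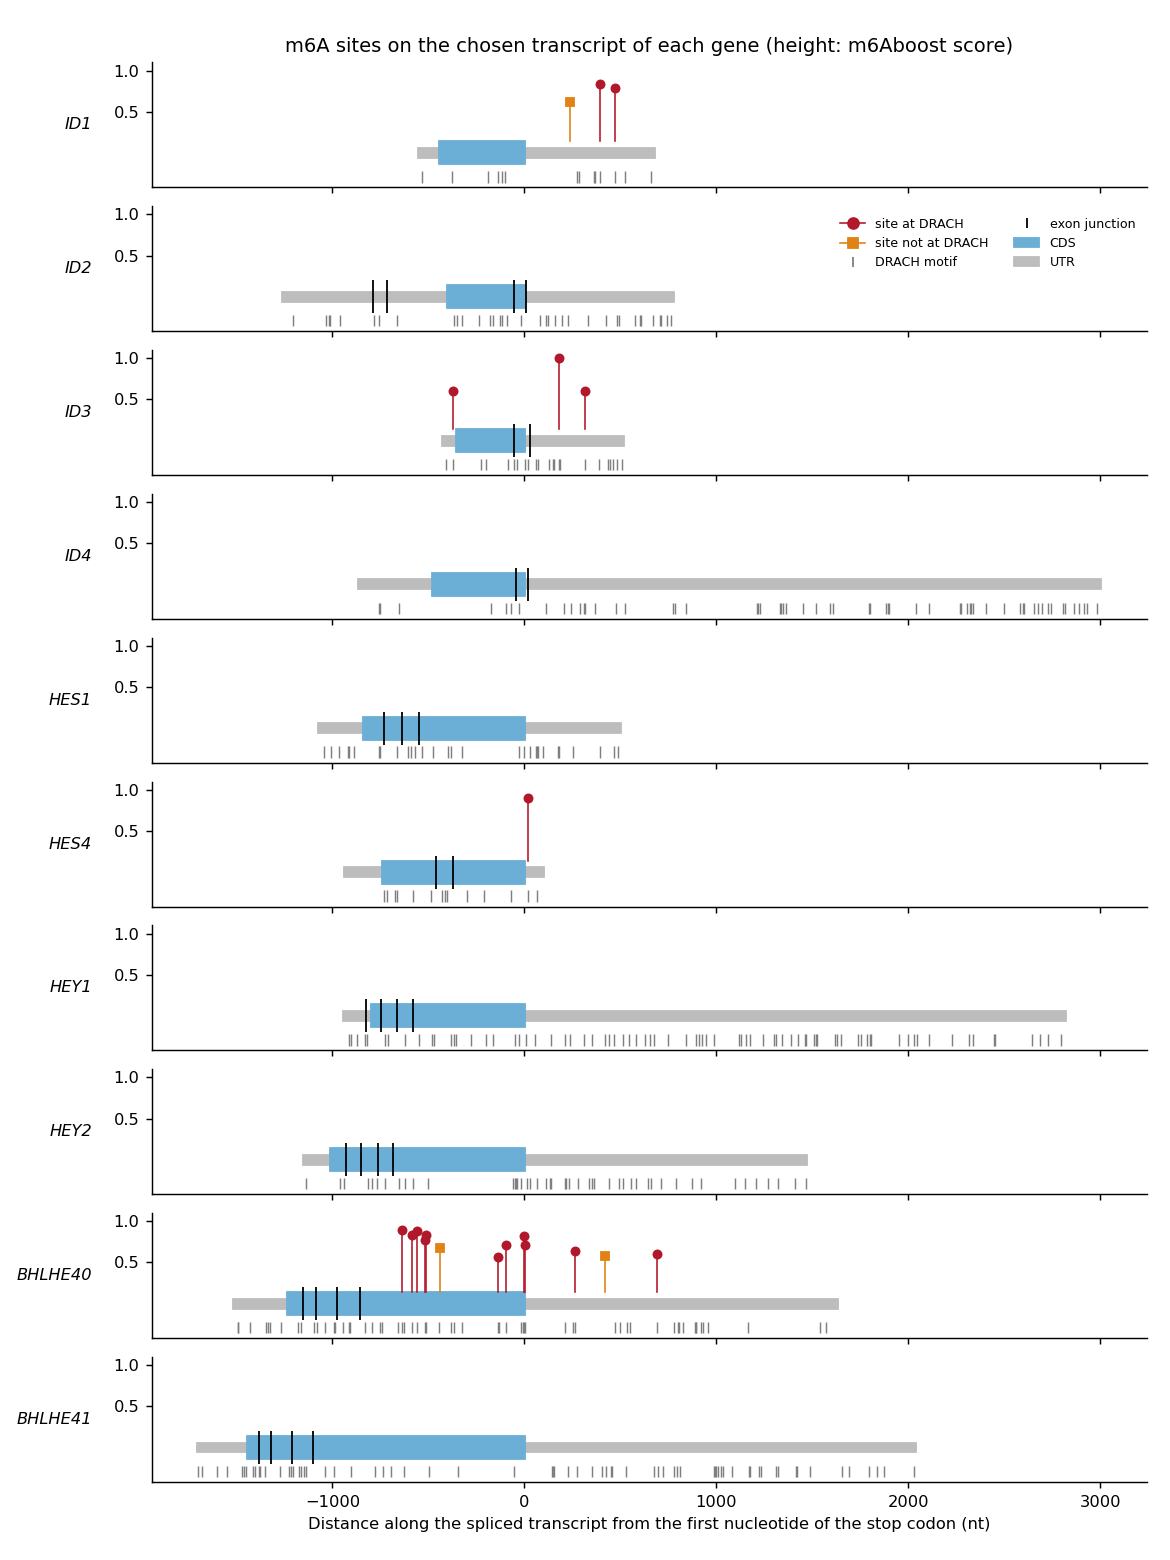
Sites on 1 transcript per gene, aligned at the stop codon (x axis, nt along the spliced transcript; y axis, m6Aboost score of each site). Circles are sites at DRACH, squares are sites elsewhere, short ticks are all DRACH motifs, black bars are exon junctions, blue is coding sequence (CDS) and grey is UTR. The 13 sites of BHLHE40 lie downstream of its last junction, and the 6 genes without sites carry DRACH motifs in 5' UTR, CDS and 3' UTR.

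The genes without sites carried DRACH motifs, and why none was listed was not tested. Their transcripts held 321 DRACH motifs, 25 of them GGACT, a pentamer with 4072 sites in the list. Over all transcripts with a site, 7.29% of DRACH and 25.8% of GGACT motifs were listed, but the genes without sites are not among those transcripts. HEY1 had 79 DRACH motifs, BHLHE41 had 69, ID4 had 60, HEY2 had 47, ID2 had 36 and HES1 had 30, and 0 were listed in each. On these transcripts the interval for HEY1 reached 4.64%, that for HES1 11.4%. The canonical transcripts of HEY1 and ID2 are shorter and held 46 and 28 DRACH motifs, again with 0 listed. The counts of the other genes were the same on canonical transcripts. HES1, the archetypal Notch target, carried GGACT 26 nt before the stop codon and again 59 and 96 nt after its first nucleotide, and none of these was listed.

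In the 4 genes with sites, 17 of 111 DRACH motifs were listed (15.3%, 9.79 to 23.2). Over the transcripts of all genes with an exonic site the share was 7.29%. The 4 genes were kept because they hold a site, so the 15.3% does not describe the 10 genes. Over all 10, 17 of 432 motifs were listed (3.94%, 2.47 to 6.21). ID1 had 2 of 14 listed (14.3%, 4.01 to 39.9), ID3 had 3 of 23 (13%, 4.54 to 32.1), HES4 had 1 of 14 (7.14%, 1.27 to 31.5) and BHLHE40 had 11 of 60 (18.3%, 10.6 to 29.9). The intervals of the 4 genes overlap each other. Motifs of 1 transcript share its expression and are not replicates, and no test was run on these shares.

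**Figure D2:**
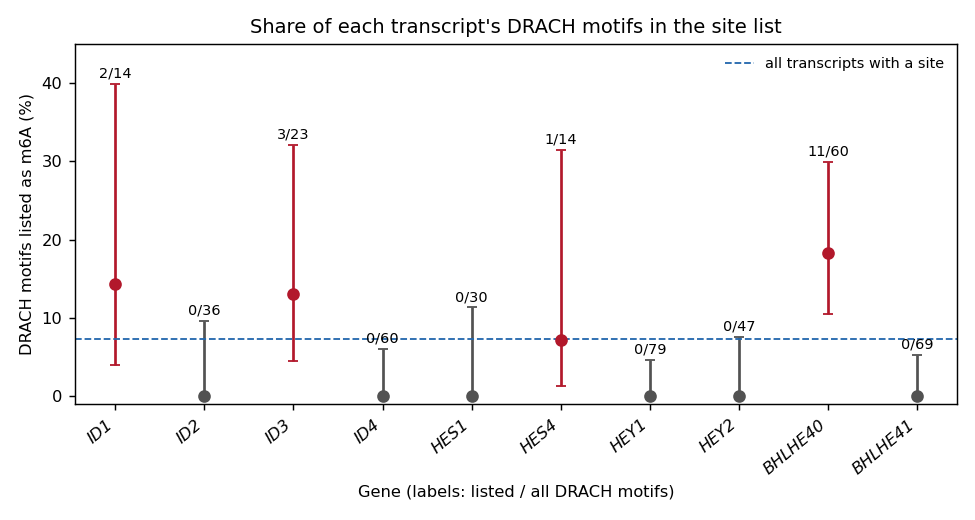
Share of each transcript's DRACH motifs that are listed as m6A (y axis, percent), by gene (x axis). Points are shares, bars are 95% Wilson intervals, labels give listed over all motifs, and the dashed line is the 7.29% of all transcripts with a site. BHLHE40 has the highest share, at 18.3%. The 6 genes at 0 are not among the transcripts behind the dashed line. Their bars cover the counting of motifs alone and take no account of coverage.

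BHLHE40 (ENSG00000134107.5) lies on the plus strand of chromosome 3 (GRCh38, 4979437 to 4985323) and has 5 exons in the transcript used. Its 13 sites place it among the 263 protein-coding genes with at least that many (6.68% of those with a site). A count of sites takes no account of the number of motifs. By the share of DRACH motifs listed, 460 of the 3713 transcripts with a site stood above BHLHE40. All 13 were in exon 5, the last exon, with 9 before the end of the CDS and 4 after it. The 31 coding DRACH motifs were divided by exon: 8 of the 21 in exon 5 were listed (38.1%, 20.8 to 59.1), and 0 of the 10 in the exons before it (upper bound 27.8%). Over all spliced transcripts with a site, 17.8% of coding DRACH motifs in last exons and 3.86% of those in earlier exons were listed. The same motifs divided by distance gave 0 of 12 listed within 100 nt of an exon junction and 8 of 19 listed farther away, beside 2.43% and 18.1% over all spliced transcripts with a site. The site closest to the last junction was 216 nt downstream of it.

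The coding sites of BHLHE40 formed a cluster upstream and a looser set at the end. The cluster ran over 6 sites from position 4983052 to position 4983251, with gaps of 54, 23, 43, 6 and 73 nt. It began with a GGACT at 4983052 (codon 200, score 0.896) and an AAACT at 4983106 (codon 218, score 0.834). A second GGACT followed at 4983129 (codon 226, score 0.888), then GGACA at 4983172 (codon 240, score 0.776) and AGACA at 4983178 (codon 242, score 0.835). The last was GGACG at 4983251 (codon 266, score 0.676), which is not DRACH. Both GGACT sites were near 0.89 and scored above 75.8% and 72.2% of the 4072 GGACT sites in the list. The AGACA at 4983178 scored above 99.0% of the 502 sites at that pentamer, whose median was 0.665. After a gap of 302 nt came GAACC at 4983553 (codon 367, score 0.569), AGACT at 4983593 (codon 380, score 0.711) and AGACT at 4983688 (codon 412, score 0.816).

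The last coding site of BHLHE40 and its nearest 3' UTR site flanked the stop codon. The AGACT at 4983688 has its adenosine 2 nt before the first nucleotide of the stop codon, in the last sense codon, and the motif ends on that nucleotide. The AAACT at 4983693 (score 0.713) starts inside the stop codon, and its central adenosine is the nucleotide right after it. The pair is 5 nt apart, the smallest gap among the 16 neighbouring pairs of these genes. The sequence is shown with the stop codon in capitals.
BHLHE40, chr3:4983677-4983706, plus strand: agaaaccaaagacTAAactctctaggggat

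Farther down the 3' UTR of BHLHE40, sites were sparser and scored lower. AGACT at 4983955 (265 nt after the stop codon began) scored 0.634, GTACT at 4984110 (420 nt) scored 0.574 and GAACT at 4984381 (691 nt) scored 0.597. GTACT is not DRACH, because T is not an allowed second base. The 3' UTR sites scored between 0.574 and 0.713, and the 9 coding sites between 0.569 and 0.896, so the ranges overlap. Of the 22 DRACH motifs in the 3' UTR 3 were listed (13.6%, 4.75 to 33.3), where 9.05% were listed over all transcripts with a site. No site was listed at the 7 motifs of its 5' UTR.

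BHLHE41 is the close relative of BHLHE40, and its transcript had as many exons and more DRACH motifs, but no listed site. Translated from the transcripts used, the proteins had 412 and 482 residues, of which 189 of 397 aligned residues were identical (47.6%). The coding sequences, aligned codon by codon, matched at 618 of 1191 paired bases (51.9%). Of the 9 coding sites of BHLHE40, 2 aligned with a DRACH motif of BHLHE41, 2 with an adenosine outside DRACH and 5 with another base. When the whole transcripts were aligned as nucleotides, the same classes held 2, 3 and 4 sites. Among the coding DRACH motifs of BHLHE40, 2 of the 8 listed and 5 of the 23 not listed aligned with DRACH in BHLHE41, and no test was run on these counts.

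The conserved positions were in the upstream cluster. The windows of 21 nt around 3 of its sites, those with the most identical bases, are shown with the aligned windows of BHLHE41, because here the motif is either kept or lost by its flanking bases. Capitals mark the pentamer whose central A is the site, or the bases aligned with it.
BHLHE40, codon 226, chr3:4983119-4983139, plus strand: catccagcGGACTttcgctca
BHLHE41, codon 224, chr12:26122835-26122855, minus strand: catccagcGGACTcagcccag
BHLHE40, codon 240, chr3:4983162-4983182, plus strand: agcgacacGGACAcagacagt
BHLHE41, codon 237, chr12:26122795-26122815, minus strand: aacgacacGGACAccgacagc
BHLHE40, codon 242, chr3:4983168-4983188, plus strand: acggacacAGACAgtggctat
BHLHE41, codon 239, chr12:26122789-26122809, minus strand: acggacacCGACAgcggctac

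At codon 226 of BHLHE40 the GGACT was kept, and 14 of the 21 bases were identical. At codon 240 the GGACA was kept, with 18 identical bases. At codon 242, 18 bases were also identical, and the adenosine was kept in a pentamer that starts with C, which is outside DRACH. The sites at codons 240 and 242 are 6 nt apart and their windows overlap, so both counts rest largely on the same bases. The AAACT at codon 218 likewise aligned with an adenosine outside DRACH, in CTACT, with 12 identical bases. In contrast, the GGACT at codon 200 aligned with a stretch that shared 3 of 21 bases, and the site before the stop codon with one that shared 7. BHLHE41 had no site in any region, so whether m6A itself was shared at the aligned positions could not be compared. Whether BHLHE41 was expressed well enough to be assayed was not tested.

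**Figure D3:**
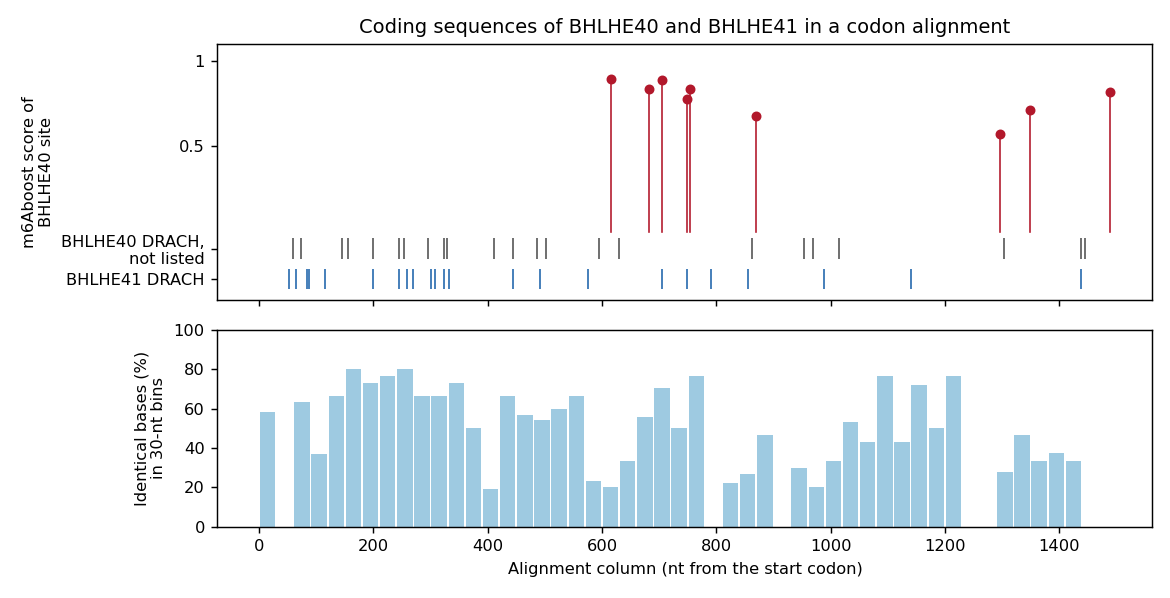
Coding sequences of BHLHE40 and BHLHE41 aligned by codon (x axis, alignment column in nt from the start codon). Upper panel, the 9 coding sites of BHLHE40 with their m6Aboost score (y axis) above the DRACH motifs of BHLHE40 that were not listed (grey) and all those of BHLHE41 (blue); lower panel, identical bases in 30-nt bins (percent), with bins of fewer than 15 paired bases left blank. Blue ticks stand under 2 of the 9 sites.

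ID3 (ENSG00000117318.9) lies on the minus strand of chromosome 1 (23557926 to 23559501) and encodes an inhibitor of E proteins. It held the highest score among these genes, a GGACT in the 3' UTR at position 23558265, 178 nt after the stop codon began and 150 nt into the last exon. Its score of 1 is shared by 25 sites of the list. An AAACT at 23558129, 136 nt farther on, scored 0.599, above 10.9% of the 731 AAACT sites. The remaining site was the GGACT at 23559440 in the 5' UTR, 14 nt before the start codon, and also scored 0.599, above 7.27% of GGACT sites. So the GGACT sites of ID3 stood at opposite ends of the score range of that pentamer. Both windows are shown, with the motif in capitals, to set equal motifs of unequal score side by side.
ID3 3' UTR, chr1:23558255-23558275, minus strand: ggagcgaaGGACTgtgaactt
ID3 5' UTR, chr1:23559430-23559450, minus strand: gcacctctGGACTcactcccc

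The 5' UTR site of ID3 was the only one of the 20 outside a last or sole exon. It was 1 of 2 DRACH motifs in that 5' UTR, and 3.17% of 5' UTR motifs were listed over all transcripts with a site. The adenosine is nucleotide 62 of the transcript used and nucleotide 4 of another annotated ID3 transcript. Where transcription started in these cells was not measured. In mouse embryonic stem cells the authors saw signal at transcript starts that did not respond to Mettl3 knockout. They thought it likely to reflect m6Am, a related modification at the 5' cap that the antibody also recognizes. Whether this holds for the ID3 site was not tested. The other GGACT of the 5' UTR, at 23559478, was not listed, so 2 of the 3 GGACT motifs of ID3 were listed.

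ID1 (ENSG00000125968.9), on the plus strand of chromosome 20 (31605283 to 31606515), encodes the founding member of the ID family. Its transcript had no GGACT, and its sites were at other pentamers. TAACT at 31606229 scored 0.834 and AGACT at 31606309 scored 0.788, both in the 3' UTR of either annotated transcript. GGACG at 31606072, outside DRACH, scored 0.614. Its region depends on the isoform. In the longer, unspliced transcript it was 237 nt downstream of an early stop codon, whereas in the canonical spliced transcript it was in codon 149, 20 nt before the stop codon. With canonical transcripts the other sites of ID1 moved to 137 and 217 nt from the stop codon. The windows of all 3 sites are shown because none has the common GGACT, and capitals mark the pentamer.
ID1, chr20:31606062-31606082, plus strand: gttcctgcGGACGatcgcatc
ID1, chr20:31606219-31606239, plus strand: tgcgccctTAACTgcatccag
ID1, chr20:31606299-31606319, plus strand: gtcaccagAGACTttaggggg

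Conservation among the ID genes could be read for the coding position of ID1 alone. Between ID proteins of the transcripts used, 43.5% to 54.0% of aligned residues were identical. With canonical transcripts the range was 44.4% to 52.4%. At the codon aligned with codon 149 of canonical ID1, ID2 had TGACA, a DRACH motif that was not listed, with 8 of 21 identical bases. ID3 had CGACA with 11, and ID4 had a G in place of the adenosine. UTRs of the ID genes aligned poorly. The windows around the UTR sites of ID1 and ID3 shared at most 13 of 21 bases with another ID transcript, and 0 were aligned with a listed site. The AGACT of ID1 at 31606309 aligned with an unlisted TGACT of ID3, with 8 identical bases.

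HES4 (ENSG00000188290.11) is a Notch-type repressor gene on the minus strand of chromosome 1 (998962 to 1000172), with a short 3' UTR of 97 nt. Its only site was AGACT, 18 nt after the start of the stop codon and contained in all 4 annotated transcripts. The score was 0.895, above 87.7% of all listed sites. The other DRACH motif of that 3' UTR and all 12 in the CDS were not listed. HES1 and HES4 shared 60.2% of aligned residues, but the site of HES4 had no matching region in HES1. The transcript alignment set this 3' UTR position against a coding base of HES1, in codon 232, with 5 of 21 identical bases.

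Set together, the 20 sites had a median score of 0.745, with a lowest of 0.569 in BHLHE40 and a highest of 1 in ID3. Over all 18789 sites the median was 0.754, and the quartiles were 0.640 and 0.847. Exactly 10 of the 20 were above the median of the list. The score uses the sequence around the adenosine, the transcript region, the relative signal and C-to-T transitions, so it is not independent of motif and region.

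**Figure D4:**
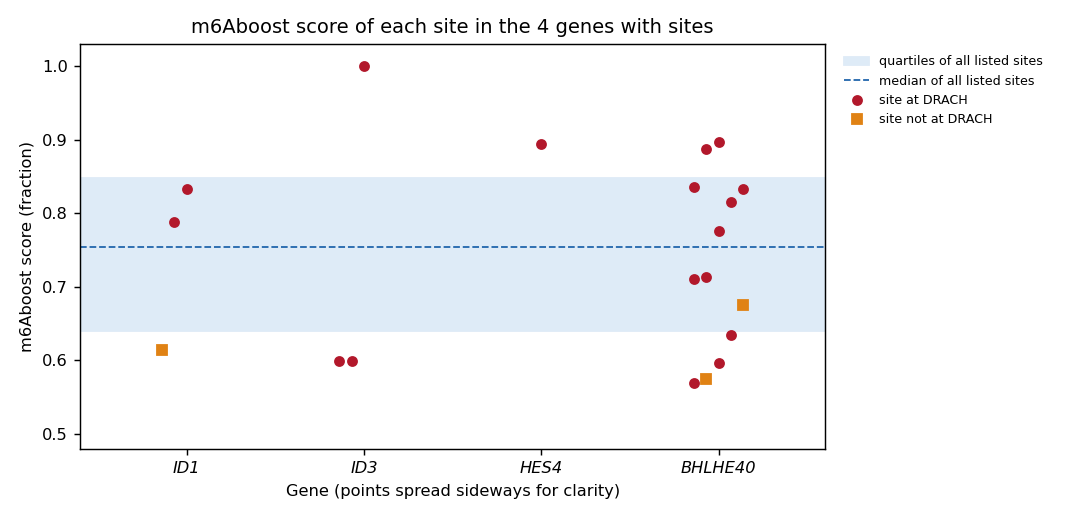
Score of every site (y axis, m6Aboost score) in the 4 genes with sites (x axis). Circles are DRACH sites and squares are others; the band spans the quartiles of all listed sites and the dashed line is their median. The sites of BHLHE40 spread from 0.569 to 0.896, and the 3 sites outside DRACH lie below the dashed line.

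By motif, 17 of the 20 sites were at DRACH (85.0%, 64.0 to 94.8), beside 88.7% of all sites. AGACT was the most frequent with 5 sites, followed by GGACT with 4 and AAACT with 3. The 3 others were GGACG in ID1 and BHLHE40 and GTACT in BHLHE40. Listed motifs mostly ended in T. Of 40 motifs ending in T in the 4 genes 14 were listed (35.0%, 22.1 to 50.5), against 3 of 71 ending in A or C (4.23%, 1.45 to 11.7), and all 3 of those were in BHLHE40. Over all transcripts with a site the shares were 15.1% and 4.07%. This division was made after the pentamers had been seen. Sites are listed by m6Aboost, which uses the sequence around the adenosine, so being listed is not independent of the motif. For GGACT, 4 of 8 motifs in the 4 genes were listed (50%, 21.5 to 78.5), beside 25.8% over all transcripts with a site. The 4 listed motifs were in ID3 and BHLHE40. These genes were kept for holding a site, and over all 10 genes 4 of 33 GGACT motifs were listed (12.1%, 4.82 to 27.3).

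By region, 10 sites were in the 3' UTR, 9 in the CDS and 1 in the 5' UTR. All 9 coding sites were in BHLHE40. The 3' UTR share was 50% (29.9 to 70.1), beside 54.6% of the exonic sites of the list. A distance of at most 200 nt from the stop codon was found for 6 of 20 (30%, 14.5 to 51.9), and 8 of 20 with canonical transcripts, beside 33.3% over all coding transcripts.

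Among 26 other genes of the same network, 4 held sites, beside the 19.6% of all protein-coding genes. TLE3, a Groucho-type corepressor that HES proteins recruit, held 8 sites, all in the 3' UTR, with scores from 0.615 to 0.954. HES6, an atypical HES protein, held 7 sites in its 3' UTR, from 0.528 to 0.911, of which 5 were at DRACH. TCF3, the E protein gene that encodes E12 and E47, held 5 sites with scores from 0.520 to 0.889, of which 4 lay in the 3' UTR of the transcript used. TWIST2, a bHLH regulator of mesenchymal cells, held 3 coding sites from 0.578 to 0.833. Sites were thus listed in 1 of 7 other HES and HEY genes, 1 of 3 E protein genes, 1 of 5 TLE genes and 1 of 4 TWIST and SNAI genes. Of the 6 clock genes (BMAL1, CLOCK, PER1, PER2, CRY1, CRY2) 0 held a site, and RBPJ, the DNA-binding effector of Notch, held none. Each of these groups is too small to set against the share of all genes.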

How the data were processed

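The authors aligned miCLIP2 reads to GRCh38 with STAR 2.7.3a, removed duplicates with UMI-tools 1.0.0, used PureCLIP on each replicate, retained peaks seen in at least 2 of them and passed peaks at adenosines to m6Aboost. The deposited list gives, per site, the prediction score as a fraction. Positions are given 1-based. Genes were taken from GENCODE release 44, later than the authors' release on the same assembly. Per gene, the transcript of greatest exonic length with transcript support level at most 3 (or none given) and support level at most 2 was used, of protein-coding type for coding genes, and distances run along it; for ID1 this is an unspliced transcript. Proteins were translated from these transcripts and aligned within each subfamily with MAFFT 7.526, and the alignment was carried to codons. Motifs were searched on the transcript strand, and overlapping motifs were counted separately. Coordinate mapping was tested on simulated transcripts. No test was run, because there is 1 pooled list; shares have Wilson intervals (scipy 1.17.1, Python 3.11.15). Depth per site is unknown. Other columns with values per sample numbered 0. The named genes were all 10 members and the fixed network list. Members and lists were chosen with earlier results of these data known. One thyroid gene and the sequence around one site are not reported here.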

Additional observations from a re-analysis of the deposited data

How the results depend on the processing

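Of 30 alternatives computed for 9 results, 21 were called the same and 9 moved. For shares, the same meant within the interval of the reported value, and for counts within 1.5 times. The median score of 0.745 has no interval, and its alternatives are also among the 21. It was 0.834 with scores of at least 0.7, a cut that can only raise it, and 0.7885 without BHLHE40. A score of at least 0.7 left 12 sites in the same number of genes, and 100% of them were at DRACH. Counting RAC in place of DRACH gave 95.0% of sites, and a window of 400 nt gave 55.0% of sites near the stop codon; both follow from the wider definition. Limiting the motifs to members with a site raised the listed share from 3.94% to 15.3% for DRACH and from 12.1% to 50% for GGACT, since the 6 genes left out have 0 listed. BHLHE40 alone decided several values. Without it, an alternative chosen after seeing the data, 7 sites remained, 85.7% of them in the 3' UTR, and 1.61% of DRACH motifs were listed over the other 9 genes. The count of coding sites with a listed counterpart in a paralog was 0 by construction, since no paralog had a listed coding site; its 4 alternatives are among the 21 and say nothing about stability. Replicates could not be left out because the list pools them. No paired analysis was possible because all libraries belong to 1 group. The number of sites, 20, and the unknown depth limit every share given here.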

Other observations

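The pair of sites around the stop codon of BHLHE40 was set against all transcripts with a site, after it had been seen. In the list, 110 sites lie 2 nt before the first nucleotide of a stop codon and 39 lie 3 nt after it. DRACH motifs occur at both positions in 12 of the 3713 transcripts with a site, and in 2 of these, BHLHE40 and ANXA11, both positions are listed.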
